A study of Mus musculus with 12 samples.

Results

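Cyclins, cyclin-dependent kinases (CDKs) and 5 CDK inhibitors were read in maps of H3K79me2, dimethylated lysine 79 of histone H3, made by chromatin immunoprecipitation and sequencing (ChIP-seq). The genes were chosen by symbol: protein-coding mouse genes that begin with Ccn and a cyclin letter from a to y or with Cdk and a digit, plus Cdkn1a, Cdkn1b, Cdkn2a, Cdkn2c and Cdkn2d. This gave 60 of the 21896 protein-coding genes in the RefSeq table. The rule used no measured value. It also took in 9 genes that share the prefix but encode neither a cyclin nor a CDK, such as Cdk5r1 and Ccnb1ip1, and these were kept as a class of their own.

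A cyclin is the regulatory partner without which its CDK has little activity. One branch of the family drives the cell cycle: D-type cyclins with Cdk4 and Cdk6 in G1, E- and A-type cyclins with Cdk2 at entry into and through S phase, and A- and B-type cyclins with Cdk1 at mitosis. The other branch acts on transcription: cyclin H with Cdk7 in TFIIH, cyclin C with Cdk8 or Cdk19 in Mediator, cyclin T with Cdk9 in the elongation factor P-TEFb, cyclin K with Cdk12 or Cdk13, and cyclin L with Cdk11. H3K79me2 is placed by the methyltransferase DOT1L and is known to lie over the first part of transcribed genes. Activated CD8 T cells divide rapidly and so depend on the cell cycle branch, while the transcription branch serves all cells.

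The cells were CD8 T cells isolated from male mice, activated through CD3 and CD28 and expanded for 8 days. Treatments were EPZ-5676 and SGC-0946, both inhibitors of DOT1L, and the vehicle DMSO at 0.1%, and each was renewed every 2 days. Per the labels all groups shared 1 genotype, given as wt;wt;het for the strain CreERT2;DOT1L-flox;OT-I. Read in that order it is wild type for CreERT2 and for the floxed DOT1L allele and heterozygous for the OT-I T cell receptor transgene. The sources used here give neither the age nor the number of the mice. The labelled dose of either inhibitor is 10 mM, which is doubtful as a unit because such compounds are normally used on cells in the micromolar range. Each treatment had 2 immunoprecipitated and 2 input libraries, with yeast chromatin added as an external standard.

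The values below come from 1 list of broad peaks per treatment, called the EPZ, SGC and DMSO lists. They held 4443, 55 and 12578 peaks over 18.1, 0.138 and 68.4 Mb. With 1 list per treatment there is no spread between the 2 replicates, so no test across replicates was possible and none of the differences below has a replicate check. Depth per library is unknown from these files. In bulk chromatin, a mark present in fewer cells and less of the mark per cell cannot be told apart. Marked genes are those with a peak on 1 base or more between their bounds, and an unmarked gene is one where no peak was called. Fold enrichment is the authors' ratio over background for a peak and is ranked here only within its own list. Of the markers of cell identity, 5 of 5 genes read for CD8 T cells were marked in DMSO. They were Cd8a and Cd8b1, and the CD3 genes Cd3d, Cd3e and Cd3g, which all T cells share. Cd3d and Cd3g, neighbours on chromosome 9, had the same highest value in both lists, 9.64-fold in EPZ and 10.7-fold in DMSO. In 2 of the 5 genes the highest DMSO peak also reached another protein-coding gene, so the 5 may rest on fewer than 5 peaks. Of CD4 T, B, NK and myeloid markers 0 of 3, 1 of 4, 0 of 2 and 0 of 4 were marked. The 1 was Cd79a, through 0.254 kb of a peak.

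Sequences are shown first for the genes whose starts the results below turn on. Each is the 250 bases upstream of a start listed by RefSeq (GRCm38.p6), on the gene's own strand, 5′ to 3′. Capitals mark 3 kinds of motif, searched on both strands: CCAAT (or ATTGG), the CHR element TTTGAA (or TTCAAA) of genes expressed at G2 and mitosis, and the E2F sites TTTCCCGC, TTTCGCGC, TTTGCCGC and TTTGGCGC with their reverse complements. The mitotic genes come first, at chr13:100786487-100786736 (minus strand), chr9:70421555-70421804 (minus) and chr10:69352913-69353162 (minus).
Ccnb1: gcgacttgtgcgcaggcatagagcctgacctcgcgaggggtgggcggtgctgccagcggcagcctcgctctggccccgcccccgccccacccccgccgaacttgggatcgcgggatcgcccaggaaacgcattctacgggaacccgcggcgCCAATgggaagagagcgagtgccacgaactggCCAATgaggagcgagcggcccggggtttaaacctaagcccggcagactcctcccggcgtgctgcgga
Ccnb2: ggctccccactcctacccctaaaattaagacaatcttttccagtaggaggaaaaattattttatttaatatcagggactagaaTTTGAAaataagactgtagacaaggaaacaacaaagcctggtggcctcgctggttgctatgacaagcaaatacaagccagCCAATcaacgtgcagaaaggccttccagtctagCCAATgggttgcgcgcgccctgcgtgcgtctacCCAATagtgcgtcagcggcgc
Cdk1: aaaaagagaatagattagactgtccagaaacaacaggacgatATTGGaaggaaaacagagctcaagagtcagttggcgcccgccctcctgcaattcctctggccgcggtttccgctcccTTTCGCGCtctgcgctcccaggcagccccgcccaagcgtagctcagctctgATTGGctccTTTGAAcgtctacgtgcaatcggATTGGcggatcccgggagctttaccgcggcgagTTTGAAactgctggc
The P-TEFb genes follow, at chr2:32712785-32713034 (minus strand) and chr15:98567737-98567986 (minus).
Cdk9: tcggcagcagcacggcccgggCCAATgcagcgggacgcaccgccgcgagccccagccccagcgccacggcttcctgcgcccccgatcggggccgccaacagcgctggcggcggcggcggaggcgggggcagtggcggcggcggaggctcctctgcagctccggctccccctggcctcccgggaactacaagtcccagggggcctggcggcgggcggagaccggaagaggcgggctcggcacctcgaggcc
Ccnt1: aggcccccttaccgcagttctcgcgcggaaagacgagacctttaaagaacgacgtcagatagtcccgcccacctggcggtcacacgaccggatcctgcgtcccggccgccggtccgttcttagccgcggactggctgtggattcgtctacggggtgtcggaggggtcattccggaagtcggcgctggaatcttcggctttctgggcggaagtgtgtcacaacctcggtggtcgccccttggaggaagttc
Ccnd3 and Cdkn2a have 2 listed starts each. The downstream start of Ccnd3 lies after chr17:47593217-47593466 (plus strand), and the upstream and downstream starts of Cdkn2a lie after chr4:89294620-89294869 and chr4:89282193-89282442 (both minus).
Ccnd3 downstream start: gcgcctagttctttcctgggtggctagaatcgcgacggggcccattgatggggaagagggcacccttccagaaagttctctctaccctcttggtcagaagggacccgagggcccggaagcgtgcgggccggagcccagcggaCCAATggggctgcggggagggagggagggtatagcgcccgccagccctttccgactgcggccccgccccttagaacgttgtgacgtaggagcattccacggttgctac
Cdkn2a upstream start: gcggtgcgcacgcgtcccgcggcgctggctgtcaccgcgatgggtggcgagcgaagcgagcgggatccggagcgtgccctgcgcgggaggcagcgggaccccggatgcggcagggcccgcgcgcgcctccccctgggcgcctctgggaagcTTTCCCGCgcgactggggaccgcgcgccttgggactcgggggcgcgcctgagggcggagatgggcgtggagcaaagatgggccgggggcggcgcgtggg
Cdkn2a downstream start: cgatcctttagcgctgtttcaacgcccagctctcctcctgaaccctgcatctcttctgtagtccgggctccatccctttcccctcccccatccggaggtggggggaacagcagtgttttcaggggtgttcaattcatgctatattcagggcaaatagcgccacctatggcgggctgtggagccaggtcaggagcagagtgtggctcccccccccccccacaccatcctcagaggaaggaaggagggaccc

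Counted over whole windows, CCAAT was present upstream of 6 of 11 starts of cell cycle cyclins and CDKs and of 5 of 12 starts of their transcription counterparts, against 35.4% of all 21262 listed starts. TTTGAA was present in 2 of 11 cell cycle windows, those of Cdk1 and Ccnb2, in 0 of 12 transcription windows and in 14.5% of all windows. Over all members it was present in 6 of 56 windows (10.7%), among them those of Ccnf, Ccni, Cdk16 and Cdk5rap1. An E2F site was present in 2 of 11 cell cycle windows, those of Cdk1 and Cdk2, in 0 of 12 transcription windows and in 2.35% of all. The Cdk1 window held all 3 kinds of motif, with TTTGAA from 15 to 10 bases before the start. Ccnb2 held 3 copies of CCAAT and Ccnb1 held 2. These matches describe letters in a window and are not evidence of binding.

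Across the family, EPZ-treated cells had a called peak in 31 of 60 genes (51.7%, exact 95% interval 38.4 to 64.8), SGC-treated cells in 0, and DMSO cells had one in 40 (66.7%, interval 53.3 to 78.3). Among all protein-coding genes the shares were 15.9% in the EPZ list, 0.142% in the SGC list and 34.5% in the DMSO list. All 31 genes with an EPZ peak were also marked in DMSO, as were all 3485 EPZ-marked protein-coding genes. This overlap is therefore no feature of the family. Thus 31 of 40 DMSO-marked members (77.5%, interval 61.5 to 89.2) had an EPZ peak, against 46.1% of all DMSO-marked genes. The intervals cover counting of genes only. The median fold enrichment of the highest DMSO peak was 5.99 over the 40 marked members and 4.47 over all 7560 marked genes, and 11 of the 40 lay below the median of all marked genes. Marked members had a median of 45.6% of their length under DMSO peaks, against 23.7% over all marked genes, and a shorter median length of 16.9 kb against 23.4 kb.

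The 20 members with no peak in any list lay mostly outside the central cell cycle and transcription classes. They were 3 cell cycle cyclins, 4 other cyclins, 6 other CDKs and 7 of the associated proteins. Ccnd1, the D-type cyclin used widely outside lymphocytes, had no peak, nor had Ccna1 and Ccnb3, known for roles in meiosis. The other cyclins without one were Ccnj, Ccnjl, Ccno and Ccnyl1. The other CDKs were Cdk5, best known from neurons, Cdk10, Cdk14, Cdk15, Cdk18 and Cdk20. The associated proteins were Cdk5r1 and Cdk5r2, activators of Cdk5, Cdk5rap1, Cdk5rap2, Cdk5rap3, Ccnb1ip1 and Ccndbp1. The nearest DMSO peak lay 13.8 kb from Ccnd1, 54.7 kb from Ccna1 and 527.4 kb from Ccnb3. Cdk5 at 1.94 kb and Ccnb1ip1 at 3.76 kb were the 2 unmarked members within 5 kb of a DMSO peak.

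**Figure D1:**
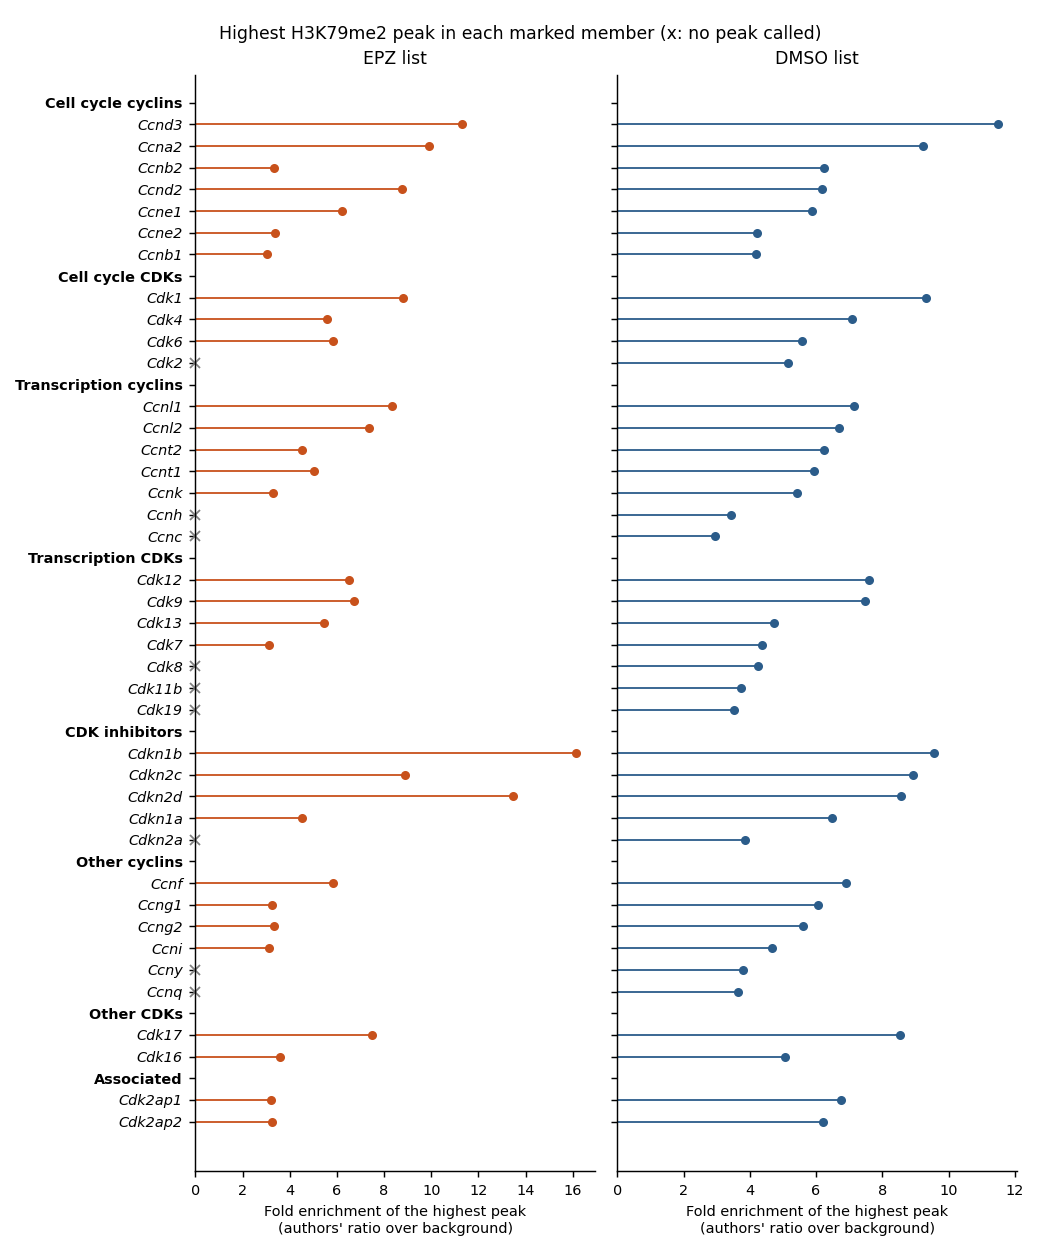
Fold enrichment of the highest peak within each of the 40 marked genes, in the EPZ list (left) and the DMSO list (right), grouped by class and ordered by the DMSO value, with a cross where no peak was called. The axes belong to separate lists and their lengths are not to be compared. The 9 crosses lie in genes with DMSO values of 5.14 or less.

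Most cell cycle cyclins were marked. In EPZ and in DMSO 7 of 10 were marked, against 15.9% and 34.5% of all genes. As every EPZ-marked gene was also marked in DMSO, they were the same 7: Ccnd2 and Ccnd3, Ccne1 and Ccne2, Ccna2, Ccnb1 and Ccnb2. Their highest DMSO peaks spanned 4.18-fold to 11.5-fold. The marks in EPZ covered a median of 24.5% of the bases covered in DMSO, from 18.3% in Ccnd3 to 51.0% in Ccna2, where the median ratio of EPZ- to DMSO-covered bases over all genes marked in both lists was 34.4%.

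Ccnd3, the D-type cyclin required in developing T cells, had the highest DMSO value of all 60 genes. Its highest peak stood at 11.3-fold in the EPZ list and 11.5-fold in the DMSO list, each above 95% of the marked genes of its own list (percentiles 95.1 and 98.9). The gene runs over 94.6 kb of chromosome 17 from 47505051 to 47599689, with listed starts at 47505051 and 47593467. Peaks covered 6.85 kb of it in EPZ and 37.4 kb in DMSO. The highest peaks began just past the downstream start, by 0.146 kb in EPZ and 0.041 kb in DMSO, and measured 4.23 kb and 6.55 kb. A wider and weaker domain followed the upstream start. In EPZ it held peaks of 0.520 and 2.10 kb, at 2.88-fold and 2.86-fold, and in DMSO a peak of 30.9 kb at 4.26-fold and a short one of 0.352 kb at 3.18-fold. The end of the downstream DMSO peak also reached the neighbour Bysl.

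Ccnd2, the other marked D-type cyclin, had 1 EPZ peak, in the strongest part of its DMSO domain. Its highest peak had 8.75-fold in EPZ over 2.75 kb, and 6.17-fold in DMSO over 7.47 kb. A pair of weaker DMSO peaks, of 0.937 and 2.81 kb at about 3-fold, had no EPZ counterpart. Ccne1, which activates Cdk2 for entry into S phase, was covered over 20.1% of its length in EPZ and 98.4% in DMSO. Its EPZ peaks were a pair, with 6.23-fold over 1.56 kb and 2.97-fold over 0.357 kb, and its DMSO peak was a single one of 9.54 kb and 5.89-fold. The related Ccne2 was weaker, with 1.34 kb at 3.37-fold in EPZ and a highest peak of 4.22-fold in DMSO.

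The cyclins of S phase and mitosis ranged widely. Ccna2, which serves Cdk2 and then Cdk1, had 2.72 kb at 9.89-fold in EPZ and 5.33 kb at 9.24-fold in DMSO. Ccnb2 had 0.991 kb at 3.32-fold in EPZ and 2.47 kb at 6.24-fold in DMSO. Ccnb1 had 1.30 kb at 3.04-fold in EPZ and 4.86 kb at 4.18-fold in DMSO. The DMSO peaks of both B-type cyclins extended upstream past the start, over 214 bases of the Ccnb1 sequence printed above and 128 bases of that of Ccnb2, and the EPZ peaks covered 0 bases of either. With peaks limited to a −log10 q of 5 or more, the EPZ peaks of Ccnb1, Ccnb2 and Ccne2 and the DMSO peaks of Ccne2 dropped out. This left 4 of 10 cell cycle cyclins marked in EPZ and 6 of 10 in DMSO, against 7.68% and 17.3% of all genes at that threshold.

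Of the 4 cell cycle CDKs, 3 had an EPZ peak and all 4 had a DMSO peak, against 15.9% and 34.5% of all genes. Cdk1, the kinase of mitosis, was the strongest, with 7.07 kb of its 17.8 kb covered at 8.79-fold in EPZ and 12.7 kb in DMSO, where the highest peak stood at 9.32-fold. Its peaks covered 177 bases of the upstream sequence in EPZ and all 250 bases in DMSO. Cdk4, a short gene of 3.75 kb, had 1.45 kb at 5.57-fold in EPZ and 3.45 kb at 7.08-fold in DMSO. Cdk2 had no EPZ peak. Its DMSO peak measured 1.68 kb at 5.14-fold, the highest DMSO value among the 9 members marked in DMSO alone. The bounds of Cdk2 lie within those of Pmel, so its peak cannot be given to Cdk2 alone.

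Cdk6, the partner of D-type cyclins next to Cdk4, had the most sequence under DMSO peaks of all 60 genes. The gene spans 190.0 kb of chromosome 5 from 3341004 to 3531008. Peaks covered 22.0 kb in 5 pieces in EPZ and 146.0 kb in 16 pieces in DMSO, which is 11.6% and 76.9% of the gene. The highest peak ran from 2.35 kb before to 9.03 kb past the listed start in EPZ (5.84-fold), and from 3.19 kb before to 62.8 kb past it in DMSO (5.58-fold). In EPZ the last peak ended 40.4 kb past the start, and in DMSO the last ended 170.2 kb past it. All 5 EPZ peaks lay within the span of the first DMSO peak.

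**Figure D2:**
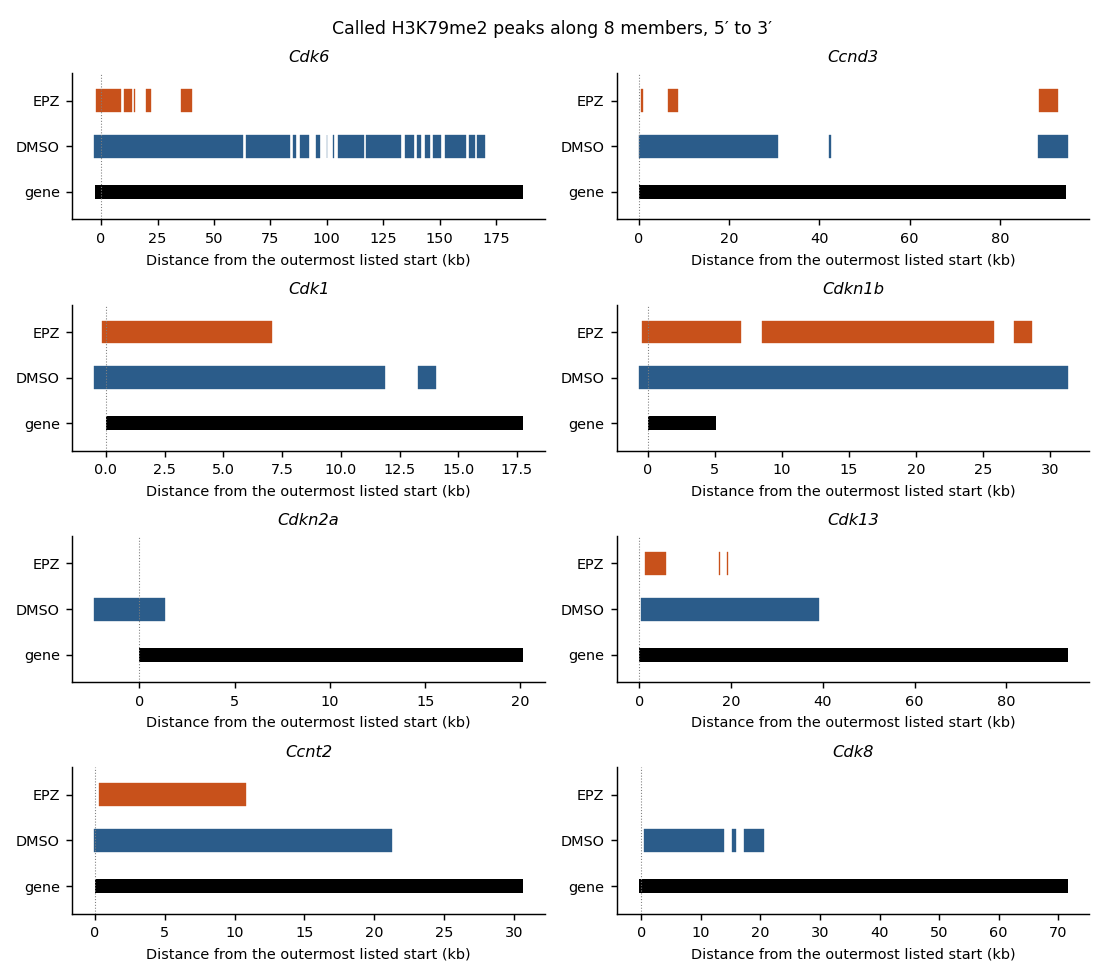
Called peaks along 8 genes drawn 5′ to 3′, with distance from the outermost listed start in kb on the x axis, EPZ peaks above DMSO peaks and the gene bounds in black. EPZ peaks of Cdk6 end within 40.4 kb of the start, Cdkn2a and Cdk8 have none, and the peaks drawn for Cdkn1b include those past the end of the gene.

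Transcription cyclins and CDKs were all marked in DMSO, and those of Mediator were not marked in EPZ. Among cell cycle cyclins and CDKs the counts were 10 of 14 in EPZ and 11 of 14 in DMSO. Among transcription cyclins and CDKs they were 9 of 14 in EPZ, made up of 5 of 7 cyclins and 4 of 7 CDKs, and 14 of 14 in DMSO. Of all genes 15.9% were marked in EPZ and 34.5% in DMSO. Of DMSO-marked genes, 90.9% of the cell cycle branch (10 of 11, interval 58.7 to 99.8) and 64.3% of the transcription branch (9 of 14, interval 35.1 to 87.2) had an EPZ peak. Over all DMSO-marked genes the share was 46.1%. The intervals cover counting of genes only and are no test between the branches. The difference between the branches was 26.6 percentage points. Its direction turned to −7.78 points, with 7 of 10 cell cycle genes and 7 of 9 transcription genes, once peaks under a −log10 q of 5 were left out. At that threshold 7.68% of all genes were marked in EPZ and 17.3% in DMSO. For the cyclins alone 7 of 7 DMSO-marked genes of the cell cycle branch and 5 of 7 of the transcription branch had an EPZ peak, and with the weaker peaks left out 4 of 6 and 4 of 5, so this direction turned as well.

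P-TEFb, which releases paused RNA polymerase II, had EPZ peaks in all 3 of its genes. Cdk9 had 2.42 kb at 6.71-fold in EPZ and 6.13 kb at 7.47-fold in DMSO. Ccnt1 had 5.49 kb with a highest peak of 5.04-fold in EPZ, and 12.95 kb at 5.92-fold in DMSO. Its peaks covered all 250 bases of the upstream sequence in both lists, whereas that of Cdk9 was covered over 0 bases in EPZ and 250 in DMSO. Ccnt2, which stands in for Ccnt1 in this complex, had 10.6 kb at 4.52-fold in EPZ and 21.3 kb at 6.24-fold in DMSO.

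The kinases that act later in elongation and their cyclin were also marked in both lists. Cdk12 had 4.21 kb at 6.49-fold in EPZ and 8.94 kb at 7.59-fold in DMSO, the highest DMSO value of the transcription branch. Cdk13, its close relative, had 5.33 kb in 3 pieces at up to 5.44-fold in EPZ, and 1 domain of 38.9 kb at 4.73-fold in DMSO. Ccnk, the cyclin of both, had 1.17 kb at 3.30-fold in EPZ and 5.01 kb at 5.44-fold in DMSO. The DMSO peak of Ccnk was 19.9 kb wide and lay mostly on the neighbour Setd3, so its value cannot be given to Ccnk alone. The EPZ peak of Ccnk had a −log10 q under 5.

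The cyclin L genes, tied to splicing, were marked strongly, and their kinase was not. Ccnl1 had 5.99 kb at 8.32-fold in EPZ and 11.1 kb at 7.14-fold in DMSO. Ccnl2 had 1.99 kb at 7.38-fold in EPZ and 10.1 kb at 6.69-fold in DMSO. Cdk11b had no EPZ peak and 2.40 kb of a DMSO peak of 3.74-fold that it shared with Slc35e2.

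The Mediator kinase genes and the cyclin H pair, with Cdk11b, held the weakest marks of this branch. Ccnc had no EPZ peak and 1.36 kb at 2.94-fold in DMSO, the lowest DMSO value of all 40 marked genes. Cdk8 and Cdk19, its alternative kinases, had no EPZ peak either, although DMSO peaks covered 17.5 kb of Cdk8 and 26.2 kb of Cdk19, at up to 4.25-fold and 3.51-fold. Ccnh had none in EPZ and 0.904 kb at 3.42-fold in DMSO. Cdk7, which with Ccnh both phosphorylates RNA polymerase II and activates the cell cycle CDKs, had 0.338 kb at 3.13-fold in EPZ and 3.28 kb at up to 4.36-fold in DMSO. Leaving out peaks under a −log10 q of 5 removed the DMSO peaks of Ccnc, Ccnh, Cdk8, Cdk11b and Cdk19, which left 9 of 14 genes of the branch marked in DMSO, against 17.3% of all genes. It also removed the EPZ peaks of Cdk7 and Ccnk, which left 7 of 14 marked in EPZ, against 7.68% of all genes.

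**Figure D3:**
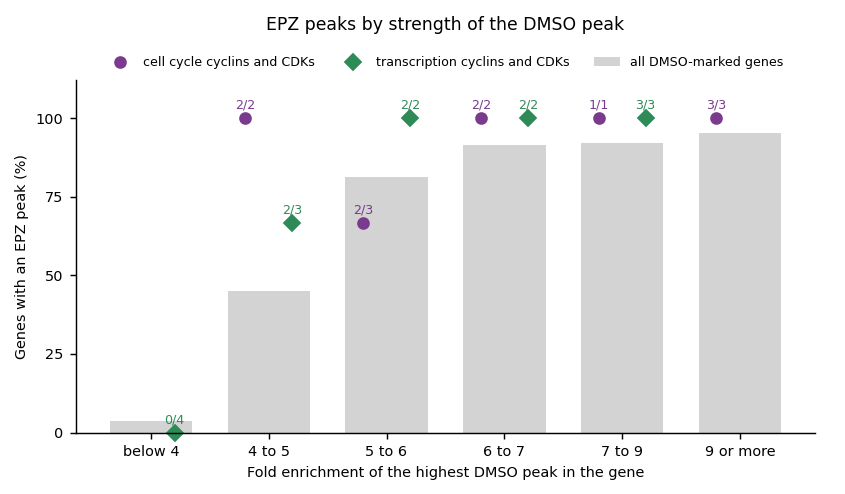
Share of genes with an EPZ peak (y axis, percent) by fold enrichment of the gene's highest DMSO peak (x axis). Bars show all DMSO-marked genes and points the cell cycle (circles) and transcription (diamonds) cyclins and CDKs, labelled with genes that had an EPZ peak of genes in the bin. The bars run from 3.54% below 4-fold to 95.2% at 9-fold or more, and 0 cell cycle genes and 4 transcription genes fall in the lowest bin.

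Of the 9 members marked in DMSO alone, 8 had DMSO values of 4.25-fold or less. The other was Cdk2 at 5.14-fold, above 6 members that had an EPZ peak. Of 7 members below 4-fold in DMSO 0 had one, as did 3.54% of all 2911 such genes. From 4-fold to below 5-fold 5 of 6 had one, all but Cdk8, against 44.9% of 1671 genes, and from 5-fold to below 6-fold 6 of 7, all but Cdk2, against 81.2% of 1091. Above that, 9 of 9, 7 of 7 and 4 of 4 members had one in the bins from 6-fold, from 7-fold and from 9-fold, against 91.4%, 92.1% and 95.2% of all genes. The cell cycle branch had 0 genes below 4-fold and the transcription branch 4. The median DMSO value was 6.17 in the cell cycle branch and 5.08 in the transcription branch. Their distribution-free 95% intervals, over genes only, were 4.22 to 9.32 and 3.51 to 7.14 and are no test between the branches. With peaks under a −log10 q of 5 left out the medians were 6.20 (10 genes) and 6.24 (9 genes), so the order turned. Over the first 5000 bases from the start they were 5.73 and 5.68. How far DMSO strength bears on the EPZ counts of the branches was not tested.

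Within gene bounds, CDK inhibitors had the largest shares of DMSO-covered bases under EPZ peaks of the classes with more than 2 marked genes. EPZ peaks lay in 4 of 5 and DMSO peaks in 5 of 5, against 15.9% and 34.5% of all genes. In the 4 inhibitors with EPZ peaks, these covered 69.8% to 100% of the DMSO-covered bases of the gene. The 5 genes had a median length of 5.88 kb, against 23.4 kb over all DMSO-marked genes. Over the first 5000 bases from the start the transcription branch had a median share of 80.5%, so the ranking is given for gene bounds only. How far gene length bears on it was not tested. Cdkn1b, the inhibitor of Cdk2 complexes also called p27, was covered over its whole 5.13 kb (chromosome 6, 134920401 to 134925525) in both lists. Its highest peak stood at 16.2-fold in EPZ and 9.55-fold in DMSO, the highest EPZ value of the family. The DMSO peak was 32.0 kb wide and ran 31.3 kb past the start, far beyond the gene. Over that same stretch EPZ peaks covered 26.0 kb, or 81.2%, in pieces of 7.34, 17.3 and 1.34 kb.

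Cdkn2c and Cdkn2d, which encode INK4 inhibitors of Cdk4 and Cdk6, are short genes that DMSO peaks covered over 100% and 94.4% of their length. Cdkn2c had 4.75 kb at 8.91-fold in EPZ and 5.88 kb at 8.93-fold in DMSO. Cdkn2d had 2.204 kb at 13.5-fold in EPZ and 2.80 kb at 8.56-fold in DMSO. Their DMSO peaks also ran beyond the genes. Measured over the whole DMSO peaks, EPZ peaks covered 42.9% at Cdkn2c and 27.5% at Cdkn2d, against 80.8% and 78.8% within the gene bounds. The Cdkn2d peak was shared with Kri1. Cdkn1a, the p53-induced inhibitor, had 5.42 kb at 4.53-fold in EPZ and 7.77 kb at 6.48-fold in DMSO, which is 69.8% of the DMSO-covered bases by either measure.

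Cdkn2a was marked at 1 of its 2 listed starts. No EPZ peak was called in it. The DMSO peak of 3.75 kb and 3.84-fold ran from 2.39 kb before to 1.36 kb past the upstream start at 89294619 on chromosome 4, known as the start of the Arf transcript. It covered all 250 bases of the upstream sequence printed above and 0 bases of that of the downstream start at 89282192, from which the INK4A transcript begins. Its −log10 q was under 5.

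**Figure D4:**
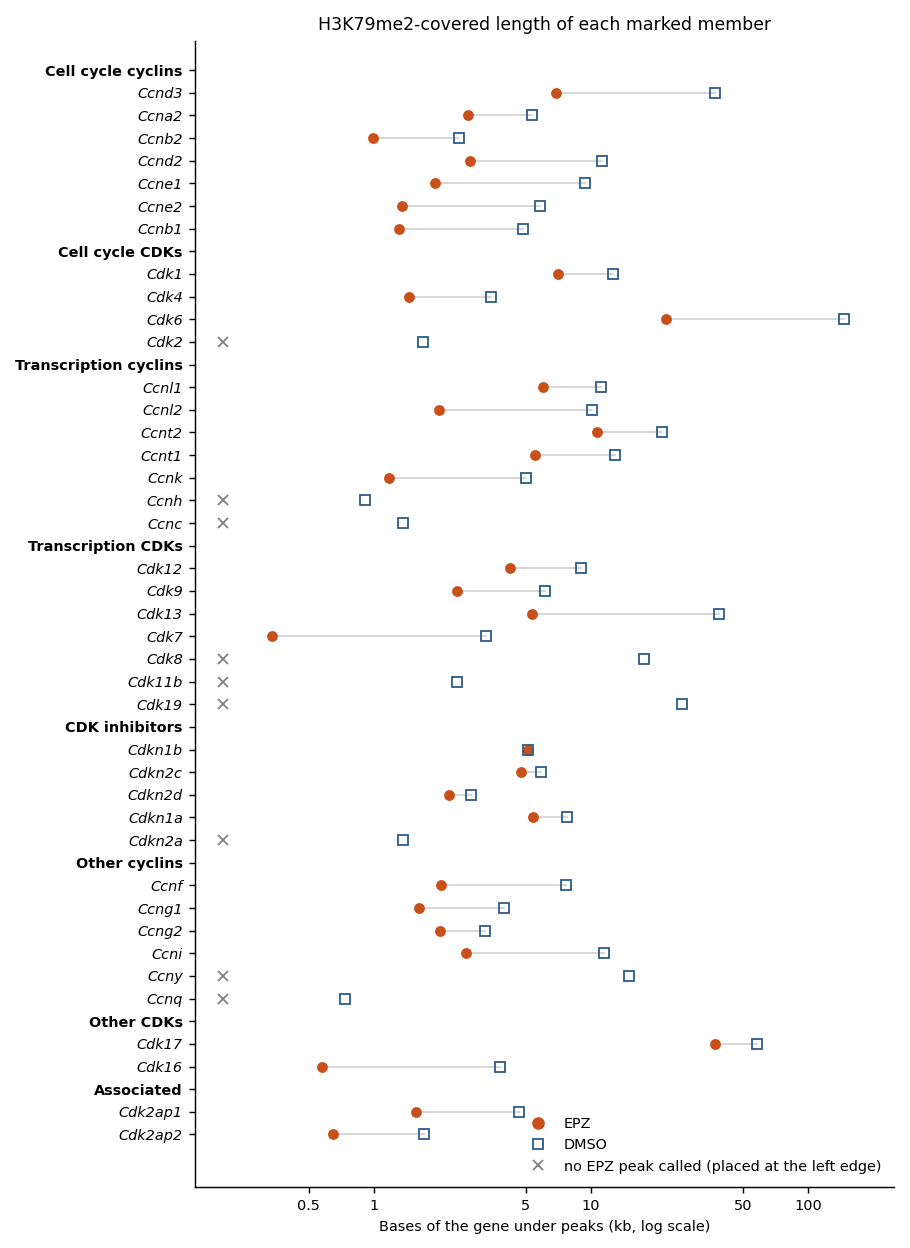
Length of each of the 40 marked genes under EPZ peaks (circles) and DMSO peaks (open squares), in kb on a log axis, with crosses at the left edge for the 9 genes without an EPZ peak. In 30 of the 31 genes marked in both lists the circle lies left of the square, and the symbols coincide at Cdkn1b. Over all genes marked in both lists the ratio of EPZ- to DMSO-covered bases had a median of 34.4% and an upper quartile of 55.4%. Shorter EPZ coverage is therefore no feature of the family.

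Among the remaining cyclins 4 of 10 were marked in EPZ and 6 of 10 in DMSO, against 15.9% and 34.5% of all genes. With peaks under a −log10 q of 5 left out, 1 of 10 was marked in EPZ, which was Ccnf, and 4 of 10 in DMSO, where Ccnq and Ccny dropped out. The shares of all genes at that threshold were 7.68% and 17.3%, so the EPZ count is near the background. Ccnf, an F-box cyclin that targets proteins for degradation, had 2.03 kb at 5.83-fold in EPZ and 7.69 kb at 6.89-fold in DMSO. Ccng1, a p53 target, had 1.60 kb at 3.26-fold in EPZ and 3.98 kb at 6.05-fold in DMSO. Ccng2, which unlike most cyclins is linked to cell cycle arrest, had 2.01 kb at 3.35-fold in EPZ and 3.24 kb at 5.61-fold in DMSO. The EPZ values of Ccng1, Ccng2 and Ccni were no higher than the 25.8th percentile of EPZ-marked genes. Ccni had 2.65 kb at 3.12-fold in EPZ and 11.4 kb at 4.66-fold in DMSO. Ccny, a membrane-bound cyclin, had no EPZ peak although 6 DMSO peaks covered 14.9 kb of it at up to 3.78-fold. Ccnq, a partner of Cdk10, had none in EPZ and 0.737 kb at 3.64-fold in DMSO.

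Of the other 8 CDKs 2 were marked in EPZ and in DMSO, against 15.9% and 34.5% of all genes. Cdk17, a kinase of the PCTAIRE subfamily, had the widest EPZ coverage of the family, with 37.3 kb at up to 7.48-fold in EPZ and 58.2 kb at up to 8.54-fold in DMSO. Its relative Cdk16 had 0.573 kb at 3.58-fold in EPZ and 3.795 kb at 5.06-fold in DMSO. Of the 9 associated proteins Cdk2ap1 and Cdk2ap2, which bind Cdk2, were marked in both lists. The counts of these 2 small classes are near the shares of all genes and are not a result about either class. Cdk2ap1 had 1.56 kb at 3.21-fold in EPZ and 4.66 kb at 6.76-fold in DMSO. Cdk2ap2 had 0.645 kb at 3.26-fold in EPZ and 1.69 kb of a DMSO peak of 6.22-fold that it shared with Pitpnm1. The EPZ peaks of Cdk16, Cdk2ap1 and Cdk2ap2 all had a −log10 q under 5. At this threshold 1 of the 8 CDKs and 0 of the 9 associated proteins were marked in EPZ, against 7.68% of all genes.

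The highest peak of most members began near a listed start, at shares close to those of all genes, and further peaks lay deeper in genes such as Cdk6. A start and strand were listed for 50 of the 60 genes. The highest peak covered the outermost start in 5 of 27 members in EPZ and 22 of 33 in DMSO, against 17.6% of EPZ-marked and 37.8% of DMSO-marked genes in all. For this measure the DMSO share of members was thus above that of all genes, and the cause was not tested. The 5′ edge of the highest peak lay within 1000 bases of a listed start in 23 of 27 members in EPZ and 24 of 33 in DMSO, against 78.1% and 69.5% of all. The median position of that edge was 0.217 kb past the nearest start in EPZ and −0.083 kb in DMSO, on the upstream side. In 27 of 27 members with an EPZ peak and a start the EPZ edge lay downstream of the DMSO edge, as in 2746 of 2830 genes in all, so this is no feature of the family. In 7 of 40 marked members the highest DMSO peak also reached another protein-coding gene, against 23% of all marked genes.

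The SGC list held no peak in any of the 60 genes. With 31 genes marked in the whole SGC list, or 0.142%, a count of 0 among 60 is near the background and is not a result about the family. The 31 genes had DMSO values from 5.91-fold to 16.5-fold, with a median of 11.0. Ccnd3 exceeded 18 of them in DMSO enrichment, and 13 of the 88 genes at or above Ccnd3 had an SGC peak. At the same labelled dose and day EPZ-5676 thus had 31 marked members and SGC-0946 had 0, and with no replicate values this difference was not tested.

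Partners of the family outside the naming rule were read as 2 lists. Among 29 cell cycle partners 19 were marked in EPZ and 25 in DMSO, and among 16 transcription partners 10 were marked in EPZ and 16 in DMSO. The shares of all protein-coding genes were 15.9% in EPZ and 34.5% in DMSO. Of the cell cycle partners the highest DMSO values were those of Wee1, the kinase that restrains Cdk1, at 9.59, Cks2, a small CDK-binding subunit, at 9.41, and Trp53 at 8.49. Rb1, the target of cyclin D kinases, had 2.74 kb at 5.18-fold in EPZ and 10.0 kb at up to 5.53-fold in DMSO. Marked in DMSO without an EPZ peak were E2f6, E2f7, Cdc25c, Pkmyt1, Skp2 and Cdkn3, and E2f5, Tfdp2, Cdkn1c and Cdkn2b were unmarked in every list. Of the transcription partners the highest were the elongation factor genes Supt5 at 7.86 and Supt4a at 7.62. Marked in DMSO without an EPZ peak were Mnat1 and Ercc3 of TFIIH, Med12 and Med13l of the Mediator kinase module, and the P-TEFb regulators Hexim1 and Larp7. Of the same module Med13 and Med12l had EPZ peaks, at 3.47-fold and 6.87-fold.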

How the data were processed

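H3K79me2 ChIP-seq of 12 libraries (6 immunoprecipitates, 6 inputs) was deposited as 3 lists of broad peaks, 1 per treatment. The submitters' processing notes name MACS2 2.2.7.1, BWA 0.7.17-r1188 and Picard, and the builds GRCm38 (mm10) and sacCer3. The sources used here do not give how replicates, inputs and yeast reads entered the lists, nor the thresholds of the caller, and a list is treated here as 1 pooled value per treatment. Fold enrichment, a ratio over background, was deposited by the authors for every peak, as were its −log10 q and −log10 p. The deposited score was not used. Weak peaks go uncalled at low depth, and depth is unknown.

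Genes and their bounds came from RefSeq on GRCm38.p6, the same build. All 60 symbols matched, and 50 had a listed start. Lists were compared at the level of genes, with overlap of at least 1 base. Shares have exact (Clopper-Pearson) 95% intervals. Python 3.11.15, pandas 2.3.3, numpy 2.4.6, scipy 1.17.1 and matplotlib 3.10.9 were used. The overlap step was checked on simulated peaks. The members and gene lists were chosen with earlier results of these data known. Every member was named, by class. For the partner lists the 3 highest in DMSO, those marked in DMSO without an EPZ peak and the unmarked were named, and Rb1, Med13 and Med12l were added after their values were seen. For 1 gene that this rule names, the result is not reported here.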

Additional observations from a re-analysis of the deposited data

How the results depend on the processing

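No paired analysis was possible because each treatment has 1 pooled list, and for the same reason no replicate could be left out. Of 92 recomputed values 88 were counted as unchanged. This required a count within 1.5 times the reported one, a median within its interval, or the same direction for the difference between the branches. Each count and median was judged alone, so a turn in the order of the branch medians does not enter the 88. All counts of SGC-marked members are among the 88, and a stricter threshold could not have lowered them. Over the alternatives that kept its direction, the difference between the branches in EPZ share ranged from 12.5 to 38.5 percentage points. Leaving out peaks under a −log10 q of 5 lowered the members marked in EPZ to 20, against 31 as deposited, with 7.68% of all genes marked, and the DMSO share of all genes to 17.3%. The same threshold lowered the transcription genes marked in DMSO to 9, against 14, and turned the difference between the branches to −7.78 percentage points, against 26.6. It put the median DMSO fold enrichment at 6.20 in cell cycle genes and 6.24 in transcription genes, which turns the order of the branches. The median share of DMSO-covered bases under EPZ peaks became 42.1% in cell cycle genes and 40.0% in transcription genes, which turns their order as well. Over the first 5000 bases from the start the same median was 40.1% in cell cycle genes, against 25.6% over whole genes, and 80.5% in transcription genes, against 39.4%. That window also leaves out members without a listed start, so the medians rest on 7 cell cycle genes in place of 10, and the cause was not tested. Giving each peak to the gene it overlaps most removed Ccnk, Cdk2, Cdk2ap2 and Cdkn2d from the DMSO-marked genes. Unknown depth limits every statement on a missing peak.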
